A study of Mus musculus with 6 samples.

Results

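Chemokines and chemokine receptors were described in tumour cells from a mouse lung cancer model with and without Lkb1. The members are the 71 protein-coding gene IDs of the count table, 65 gene symbols, whose symbols mark them as CC, CXC, CX3C or XC ligands or receptors or as atypical receptors, with Ccrl2, Pf4 and Ppbp added. They comprise 47 ligand IDs and 24 receptors out of 55487 genes. Bulk RNA came from GFP-positive cells lacking CD45, sorted out of digested lungs 11 weeks after tumour initiation, 3 libraries per group. Both groups carried KP tumours, a genetic model of lung adenocarcinoma. The control tumours carried the sgNeo guide and were Lkb1 wild type, and the others carried the sgLkb1 guide and were Lkb1 mutant. Strain, age, the way tumours were started, and any pooling of animals are not stated in the labels. The labels do not say that the replicates came from separate animals, so p-values measure the spread between these libraries, which may be technical.

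Chemokines are small secreted proteins that bind G protein-coupled receptors on leukocytes and steer their movement along a gradient. CXC ligands with the ELR motif draw neutrophils through Cxcr2, the interferon-induced CXC ligands draw activated T cells through Cxcr3, and many CC ligands draw monocytes through Ccr2. Most atypical receptors bind chemokines without signalling through G proteins, and several of these receptors remove them. In the lung, airway and alveolar epithelium makes several of these ligands itself.

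Total counts ran from 26007503 to 28986526 in sgNeo and from 29613678 to 41729299 in sgLkb1, and all chemokine and receptor genes together took 0.176 to 0.369% of them. Levels are given as CPM, counts relative to a TMM-scaled library total, and 3 counts equal 0.12 CPM in an sgNeo library and 0.073 to 0.086 CPM in an sgLkb1 library. The targeted gene Stk11, which encodes Lkb1, was at 68.3, 33.4 and 82.6 CPM in sgNeo replicates 1, 2 and 3 and at 23.5, 25.6 and 25.3 CPM in sgLkb1 (adjusted p in edgeR = 0.023). The 5 epithelial markers summed to 5020 to 5850 CPM in sgNeo and 6860 to 8030 CPM in sgLkb1, with Epcam higher and the lung lineage factor Nkx2-1 lower. The 5 pan-leukocyte markers summed to 40.3 to 77.7 CPM in sgNeo and 199 to 375 CPM in sgLkb1. Of these Cd53 was higher, from 19.7 to 218 CPM in the mean. It was at 153 to 328 CPM in the sgLkb1 libraries and made up most of their sums. Ptprc, which encodes the sorting antigen CD45, was at 4.85 to 8.85 and 4.35 to 10.4 CPM and did not pass. Laptm5 and Cd52 had higher means in sgLkb1 (18.5 to 33.3 and 1.72 to 2.39 CPM) and Coro1a a lower one (5.89 to 3.29 CPM). Laptm5, Cd52 and Coro1a did not pass either. T and NK cell markers summed to 0.172 to 1.84 CPM per library, and none of their 7 genes was abundant enough to test. Fibroblast markers were higher in sgLkb1 in 4 of 8 genes, with sums of 37.2 to 116 CPM in sgNeo and 179, 258 and 1390 CPM in sgLkb1 replicates 1, 2 and 3. Macrophage markers were higher in 3 of 10 genes, with sums of 16.1 to 21.6 CPM in sgNeo and 37.5 to 59.4 CPM in sgLkb1. In bulk samples fewer cells of a type and less RNA per cell cannot be told apart.

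Libraries from Lkb1-mutant tumours held far less Cxcl15, the dominant chemokine of the control libraries, and more of several other ligands. Of the 71 members 43 were abundant enough to test, and 10 of these differed between the groups, 6 higher and 4 lower in sgLkb1. The higher ones were Cxcl13, Ccl7, Ppbp, Ackr3, Cxcl14 and Cxcl5, and the lower ones were Ccr6, Pf4, Cxcl15 and Ccl20. Over all 15978 tested genes 15.7% passed the same test, with 7.05% higher and 8.60% lower, against 23.3% of the tested members. The groups did not overlap in 21 of the 43, 13 with sgLkb1 higher and 8 with sgLkb1 lower, against 36.5% of all tested genes (16.3% with sgLkb1 higher and 20.3% with sgLkb1 lower). The median log2 fold change was 0.71 over the tested members and 0.02 over all tested genes. A low-abundance member could enter the test through the group in which it was high, so these shares and the median are descriptions only. The calls for Cxcl15, Pf4, Cxcl13, Ccl20 and Ackr3 held in each of the 6 fits that left out a library, and the other 5 did not. Without sgNeo replicate 2 only those 5 members passed. Cxcl13, Cxcl14, Ppbp and Ccl7 were not called by limma-voom, and Ccr6 was not called with no filter on low counts.

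**Figure D1:**
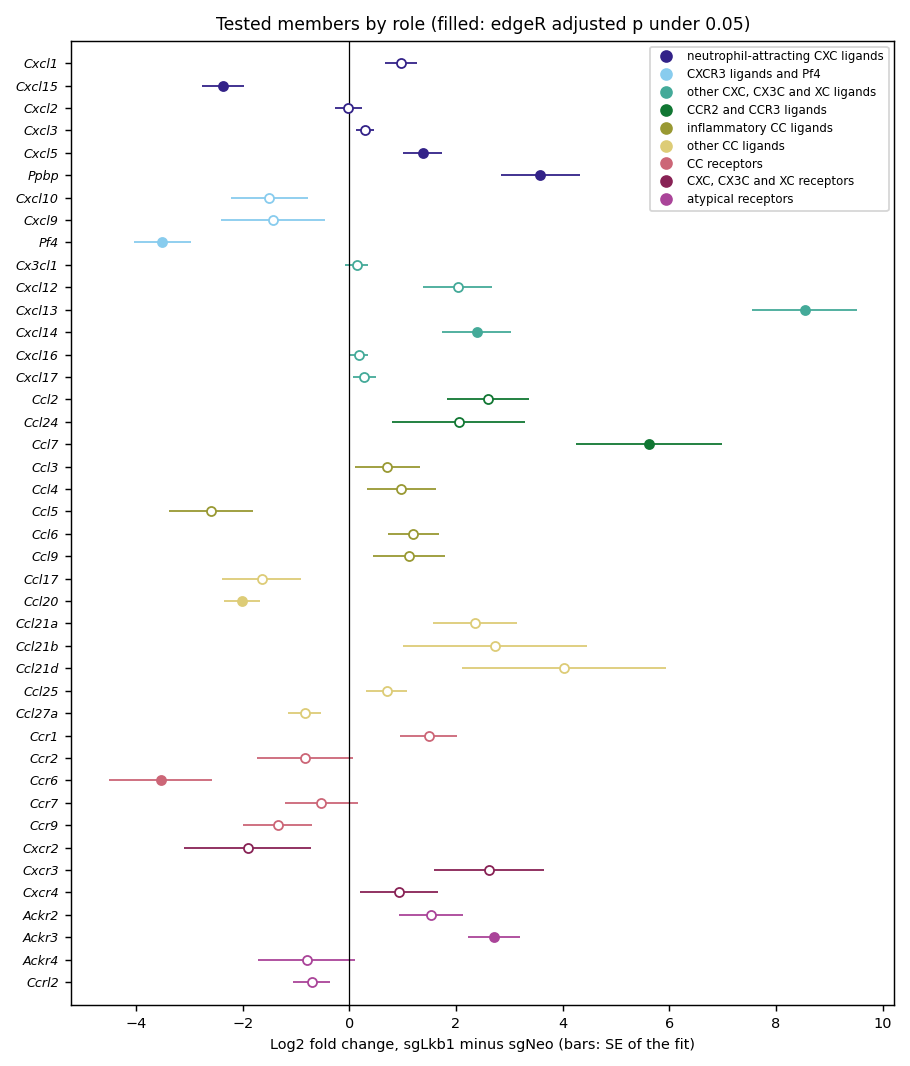
Log2 fold change (sgLkb1 minus sgNeo, x axis) with the SE of the fit for 42 of the 43 tested members, ordered and coloured by role; filled points passed at an adjusted p in edgeR of 0.05. The 10 filled points lie on both sides of 0, from Ccr6 at -3.54 to Cxcl13 at 8.54.

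The make-up of the ligand transcripts differed between the groups. Cxcl15, a lung epithelial chemokine of mice that draws neutrophils, gave 81.5, 80.5 and 77.4% of all chemokine ligand counts in sgNeo replicates 1, 2 and 3. In sgLkb1 replicates 1, 2 and 3 it gave 46.9, 22.4 and 29.3%. Ligands summed to 3390 to 4270 CPM in sgNeo and 1430 to 2050 CPM in sgLkb1. Without Cxcl15 the order was turned, with sums of 663 to 805 CPM in sgNeo and 1010 to 1220 CPM in sgLkb1. These sums were chosen after the values were seen and have no test. Per kilobase of exon, Cxcl15 led the ligands in both groups, at 1406 CPM per kb in sgNeo and 272 CPM per kb in sgLkb1. Cxcl17, Pf4 and Cxcl16 came next in sgNeo, at 110, 81.9 and 72.5 CPM per kb, and Cxcl17, Cxcl5 and Cxcl16 in sgLkb1, at 133, 124 and 81.9 CPM per kb. Neighbours in these orders were not tested against each other.

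**Figure D2:**
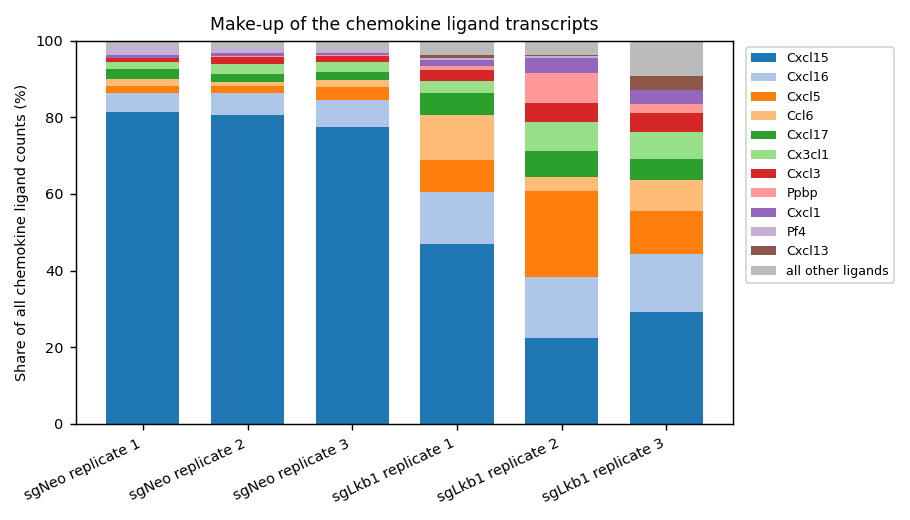
Share of all chemokine ligand counts (%, y axis) taken by each ligand in each of the 6 libraries, stacked to 100%. Cxcl15 fills 77.4 to 81.5% of the sgNeo bars and 22.4 to 46.9% of the sgLkb1 bars. Cxcl16, Cxcl5, Ccl6, Cxcl17 and Cx3cl1 take larger shares in sgLkb1. As shares add up to 100%, a smaller Cxcl15 share by itself enlarges the others. The levels of Cxcl16, Ccl6, Cxcl17 and Cx3cl1 in CPM did not pass the test.

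Neighbouring CXC genes differed in opposite directions. The neutrophil-attracting ligands and Pf4 lie side by side on the plus strand of chromosome 5 (GRCm38), in the order Cxcl5, Ppbp, Pf4, Cxcl3, Cxcl15, Cxcl1 and Cxcl2, over 147 kb with no other protein-coding gene between them. Cxcl5 and Ppbp were higher in sgLkb1, Pf4 and Cxcl15 were lower, and Cxcl3, Cxcl1 and Cxcl2 did not pass. Cxcl15, from 90794534 to 90803067, was at 3483, 2730 and 2756 CPM in sgNeo and at 961, 353 and 421 CPM in sgLkb1. Every sgLkb1 library lay far below every sgNeo library. Cxcl15 differed by -2.37 on the log2 scale (SE 0.39, adjusted p in edgeR = 0.0061), a 5.17-fold fall. Alveolar type 2 markers, whose cell type is an epithelial source of lung secretions, were lower beside it in 7 of 7 genes, with sums of 120000 to 142000 CPM in sgNeo and 11600 to 19200 CPM in sgLkb1, and their part in the result was not tested.

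Cxcl5, a ligand of Cxcr2 made by lung epithelium, was at 80.6, 61.2 and 125 CPM in sgNeo and at 176, 354 and 162 CPM in sgLkb1. The groups did not overlap, and sgLkb1 replicate 2 was the highest library. Cxcl5 differed by 1.38 on the log2 scale (SE 0.36, adjusted p in edgeR = 0.038). Leaving out sgNeo replicate 1, sgNeo replicate 2 or sgLkb1 replicate 2 ended the call (adjusted p in edgeR = 0.12, 0.14 and 0.088), with a value of 0.96 in the last case. Ppbp, the precursor of a neutrophil-attracting platelet chemokine, starts 9.2 kb after the start of Cxcl5. It was at 4.29, 2.06 and 8.44 CPM in sgNeo and at 21, 121 and 34.9 CPM in sgLkb1. Again sgLkb1 replicate 2 was the highest and the groups did not overlap. Ppbp differed by 3.58 on the log2 scale (SE 0.75, adjusted p in edgeR = 0.016) and 2.54 without sgLkb1 replicate 2, and leaving out sgNeo replicate 1 or 2 ended the call (adjusted p in edgeR = 0.064 in each).

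Pf4, platelet factor 4, a CXC chemokine without the ELR motif that platelets store and some macrophages make, starts 13.1 kb after the start of Cxcl5. It was at 102, 43.3 and 31.6 CPM in sgNeo and at 7.26, 5.61 and 2.67 CPM in sgLkb1, with no overlap. Its log2 fold change was -3.51 (SE 0.53, adjusted p in edgeR = 0.0044), an 11.4-fold fall, and -2.86 without sgNeo replicate 1, the highest library. The 5 platelet markers summed to 2.22 to 3.78 CPM in sgNeo and 1.81 to 2.60 CPM in sgLkb1, and Itga2b, the only one tested, did not pass (log2 fold change -0.54). Ppbp and Pf4, neighbours that are both known from platelets, thus passed in opposite directions, and the part of platelet RNA was not tested.

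Cxcl1, Cxcl2 and Cxcl3, the classical inflammatory neutrophil attractants, did not pass. Cxcl1 was at 27.5, 29.3 and 17 CPM in sgNeo and at 30.7, 64.1 and 49.8 CPM in sgLkb1. Its groups did not overlap, but the lowest sgLkb1 library was close to the highest sgNeo library (0.97 on the log2 scale, SE 0.30, adjusted p in edgeR = 0.067). Of the 6 fits that left out a library, only the one without sgLkb1 replicate 1 called Cxcl1 (1.22, adjusted p in edgeR = 0.016). Cxcl3 was at 51.0 to 66.2 CPM in sgNeo and 58.9 to 79.2 CPM in sgLkb1, and Cxcl2 at 7.12 to 10.7 and 7.39 to 9.04 CPM. The sign of the small Cxcl2 difference turned between settings. Cxcl2 and Cxcl3 had counts that were not whole, but their counts added up to a whole number in each of the 6 libraries (within 0.01), as when reads that match both genes are divided between them.

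**Figure D3:**
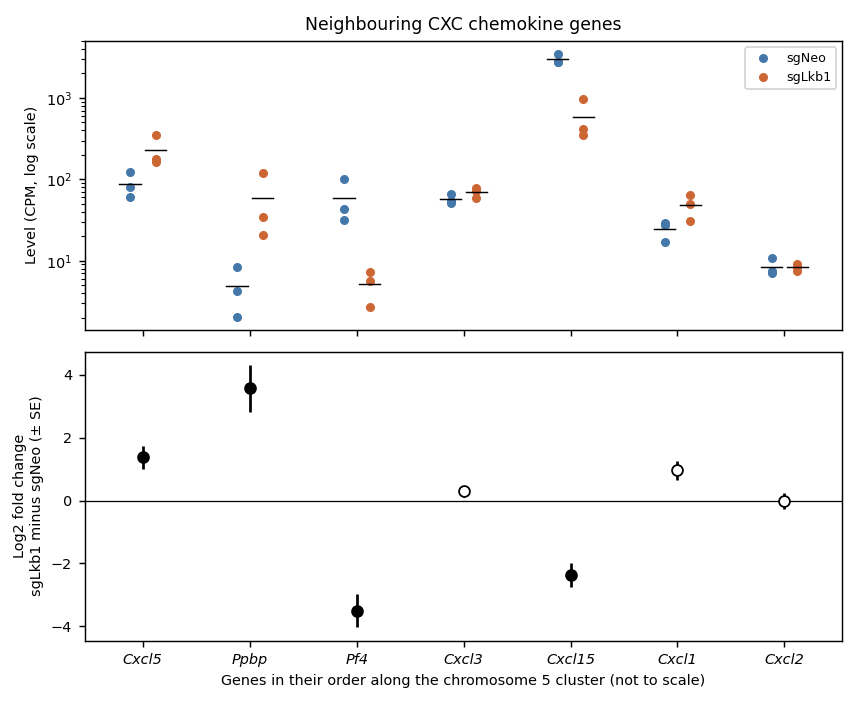
The 7 CXC genes of the chromosome 5 cluster in chromosomal order: CPM in each library on a log axis with group means as bars (top), and log2 fold change with its SE (bottom, filled where the adjusted p in edgeR was under 0.05). Cxcl5 and Ppbp lie above 0, Pf4 and Cxcl15 below it, and Cxcl3, Cxcl1 and Cxcl2 have open points.

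RefSeq promoter sequences (GRCm38.p6, 250 bases before to 50 after a gene start) were found for 50 of the 65 symbols, 59 promoters in all, and for 8 of the 10 members that passed. Both strands were searched for a κB-like motif (GGG, any 2 bases, TTTCC), a binding sequence of NF-κB, which drives inflammatory chemokine genes. The 120 bases before the start are shown for Cxcl1, Cxcl2 and Cxcl3, which hold it and did not pass, for Ccl20, the only member that passed and holds it, and for Cxcl15, Pf4 and Ppbp, which passed and have no match. Capitals mark the matches. The plus-strand windows are chr5:90891125-90891244 for Cxcl1, chr5:90903779-90903898 for Cxcl2, chr5:90785981-90786100 for Cxcl3, chr1:83116646-83116765 for Ccl20, chr5:90794414-90794533 for Cxcl15, chr5:90772315-90772434 for Pf4 and chr5:90768398-90768517 for Ppbp.
Cxcl1: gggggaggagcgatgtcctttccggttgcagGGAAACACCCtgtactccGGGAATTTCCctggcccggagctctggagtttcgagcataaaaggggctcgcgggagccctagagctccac
Cxcl2: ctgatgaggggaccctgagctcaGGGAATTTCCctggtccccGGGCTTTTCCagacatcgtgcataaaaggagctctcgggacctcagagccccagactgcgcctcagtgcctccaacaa
Cxcl3: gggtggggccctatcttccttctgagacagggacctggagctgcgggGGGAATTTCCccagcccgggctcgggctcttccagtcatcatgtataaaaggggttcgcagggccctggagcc
Ccl20: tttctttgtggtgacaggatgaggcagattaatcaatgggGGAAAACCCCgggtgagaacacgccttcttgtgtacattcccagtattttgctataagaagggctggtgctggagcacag
Cxcl15: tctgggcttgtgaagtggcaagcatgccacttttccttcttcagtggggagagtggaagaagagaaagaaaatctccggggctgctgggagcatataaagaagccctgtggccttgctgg
Pf4: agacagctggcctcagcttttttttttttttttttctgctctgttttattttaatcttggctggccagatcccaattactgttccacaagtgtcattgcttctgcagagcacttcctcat
Ppbp: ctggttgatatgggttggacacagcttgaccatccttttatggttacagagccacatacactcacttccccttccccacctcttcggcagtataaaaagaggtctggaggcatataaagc

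Cxcl1, Cxcl2 and Cxcl3 share the match GGGAATTTCC at 71, 97 and 73 bases before the start, and Cxcl1 and Cxcl2 have another each. The Ccl20 match lies on the minus strand, 80 bases before the start. The κB-like motif was present in 6 of 59 member promoters (10.2%) and in 1.63% of 32851 promoters on assembled chromosomes, with Ccl9 and Ccr3 as the other members. The interferon-stimulated element-like motif (TTTC, any 2 bases, TTTC) was in 3 of 59 (Ccl19, Cxcl10 and Cxcl14) and in 3.44% of all. The AP-1 motif TGAGTCA was in 8 of 59 and in 5.20% of all, in no member that passed, and the CRE TGACGTCA in 0 of 59 and in 1.79% of all. A match describes the letters and shows no binding, and the lack of one speaks only of this window.

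The ligands of Cxcr3, Cxcl9 and Cxcl10, which interferon induces, were not called. Cxcl10 was at 2.32, 9.91 and 24.8 CPM in sgNeo and at 2.57, 4.98 and 5.53 CPM in sgLkb1. The sgNeo libraries spanned the whole sgLkb1 range, and the log2 fold change of -1.50 (with SE 0.72, adjusted p in edgeR = 0.20) was -0.50 without sgNeo replicate 3. Without sgNeo replicate 1 it was -2.0 and Cxcl10 was called (adjusted p in edgeR = 0.048), as it was with no filter on low counts (adjusted p in edgeR = 0.0097). Cxcl9 was at 0.12 to 3.52 and 0.50 to 1.32 CPM. An exon of Cxcl10 overlaps one of Art3 on the other strand, and without a known strand setting their reads cannot be told apart.

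Among the remaining CXC and CX3C ligands, Cxcl13, the B-cell attractant that signals through Cxcr5, differed most. It was at 0.040, 0.081 and 0.080 CPM in sgNeo, which is 1 or 2 counts per library, and at 21, 6.47 and 51.4 CPM in sgLkb1. The groups were far apart, and sgLkb1 replicate 3 was the highest. Cxcl13 differed by 8.54 on the log2 scale (SE 0.98, adjusted p in edgeR = 0.0015) and 7.60 without sgLkb1 replicate 3, and limma-voom alone of the tools run did not call it (adjusted p = 0.13). Summed counts of 5 and 2903 gave a ratio of 381 with a 95% counting interval of 163 to 1170. Of the B and plasma cell markers 2 of 5 were lower, with sums of 13.6 to 20.6 CPM in sgNeo and 3.49 to 6.28 CPM in sgLkb1. Its receptor Cxcr5 was at most 0.36 CPM in any library.

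Cxcl14, a chemokine of resting epithelia, was at 1.72, 0.85 and 0.44 CPM in sgNeo and at 2.27, 8.15 and 5.33 CPM in sgLkb1 (2.38 on the log2 scale, SE 0.64, adjusted p in edgeR = 0.040). The groups lay close at their edges, and the call ended without sgNeo replicate 2 or 3 or sgLkb1 replicate 2 or 3, with adjusted p in edgeR from 0.074 to 0.14. Cxcl12, the ligand of Cxcr4 and Ackr3 that stromal cells make, was at 3.53, 3.88 and 3.06 CPM in sgNeo and at 6.89, 5.22 and 30.6 CPM in sgLkb1. The single high library was sgLkb1 replicate 3, the one with the highest fibroblast markers, and the difference did not pass (2.03 on the log2 scale, SE 0.64, adjusted p in edgeR = 0.070, and 0.78 without that library). Of the 6 fits that left out a library, those without sgLkb1 replicate 1 or 2 called Cxcl12 (2.40 and 2.47, adjusted p in edgeR = 0.047 and 0.037).

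The abundant ligands Cxcl16, Cx3cl1 and Cxcl17 gave no call. Cxcl16, a membrane-bound ligand of Cxcr6, was at 208, 198 and 251 CPM in sgNeo and at 277, 252 and 213 CPM in sgLkb1 (0.18 on the log2 scale, SE 0.17, adjusted p in edgeR = 0.54). Cx3cl1, fractalkine, was at 76.9 to 92.3 and 66.4 to 117 CPM, and Cxcl17, a mucosal chemokine of the airways, at 66.5 to 103 and 78.1 to 118 CPM. The groups overlapped for all 3. An exon of Cxcl16 overlaps one of Zmynd15 on the other strand.

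**Figure D4:**
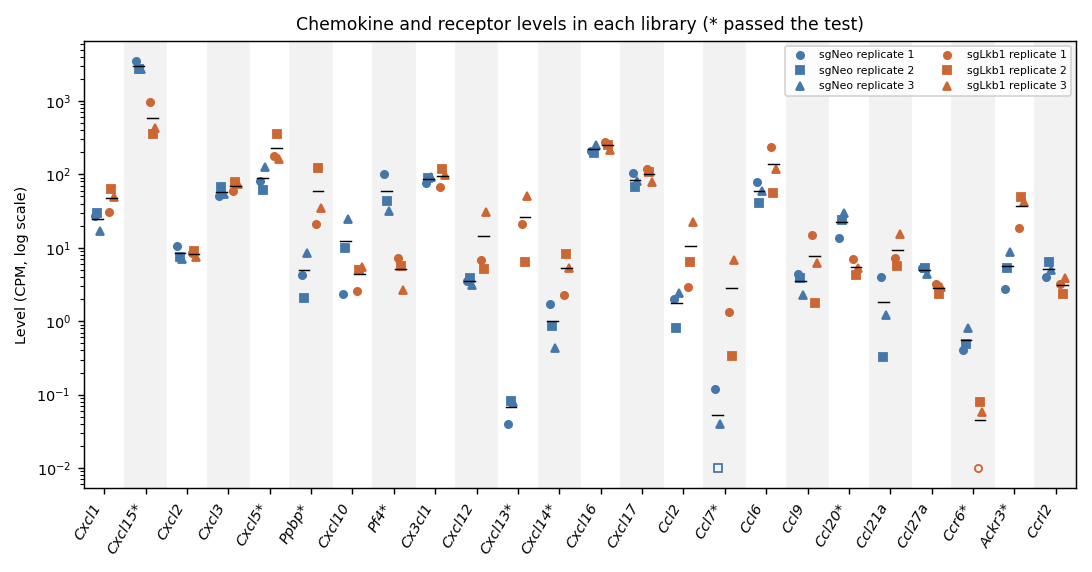
CPM on a log axis in each of the 6 libraries (symbols by replicate, bars for group means) for the 24 members that passed the test, had a group mean of at least 5 CPM or belong to the tested neutrophil attractants; open symbols at 0.01 stand for 0. Cxcl15 is the highest in both groups, and Cxcl13 shows the widest gap between groups.

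Among CC ligands, Ccl20 fell and Ccl7 rose. Ccl20, which draws Ccr6-bearing dendritic cells and lymphocytes to epithelia, was at 13.7, 23.9 and 29.7 CPM in sgNeo and at 7.11, 4.25 and 5.30 CPM in sgLkb1. The groups did not overlap, and the log2 fold change was -2.01 (SE 0.33, adjusted p in edgeR = 0.0064). Its receptor Ccr6 was at 0.40, 0.49 and 0.80 CPM in sgNeo and at 0, 0.079 and 0.057 CPM in sgLkb1, that is 42 counts against 5 in sum. The log2 fold change of Ccr6 was -3.54 (SE 0.97, adjusted p in edgeR = 0.043), with a ratio of summed levels of 12.8 (95% counting interval 5.07 to 41.4), and leaving out any one of the 6 libraries ended the call (adjusted p in edgeR from 0.075 to 0.16).

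Ccl7, a monocyte attractant that binds Ccr2, was at 0.12, 0 and 0.040 CPM in sgNeo and at 1.32, 0.34 and 6.79 CPM in sgLkb1. Every sgLkb1 library was above every sgNeo library, with sgLkb1 replicate 3 highest. Ccl7 differed by 5.62 on the log2 scale (SE 1.37, adjusted p in edgeR = 0.028), with a ratio of summed levels of 49.9 (95% counting interval 19.3 to 184). It was 3.86 without sgLkb1 replicate 3, and the call was lost there and without any one sgNeo library (adjusted p in edgeR from 0.065 to 0.10). Its neighbour in function Ccl2, the main Ccr2 ligand, was at 2.00, 0.81 and 2.43 CPM in sgNeo and at 2.91, 6.40 and 22.6 CPM in sgLkb1 (2.60 on the log2 scale, SE 0.77, adjusted p in edgeR = 0.055, and 1.39 without sgLkb1 replicate 3). Of the 6 fits that left out a library, only the one without sgLkb1 replicate 1 called Ccl2 (3.08, adjusted p in edgeR = 0.019). Of the members that passed as higher, Cxcl5, Ppbp, Ackr3 and Cxcl14 were highest in sgLkb1 replicate 2. Ccl2, Ccl7, Cxcl12 and Cxcl13 were all highest in sgLkb1 replicate 3, where fibroblast markers summed to 1390 CPM. Endothelial markers, 3 of 7 of them higher in sgLkb1, also peaked there, with sums of 30.5 to 51.7 CPM in sgNeo and 73.9, 75.2 and 122 CPM in sgLkb1 replicates 1, 2 and 3. Of 4 mesothelial markers Msln was higher in sgLkb1, and Wt1, Upk3b and Lrrn4 were at 7.45, 16.5 and 13.1 CPM in sgLkb1 replicate 3 and at most 1.73 CPM elsewhere. The mesothelial sum, mostly Msln, was 169 to 426 CPM in sgNeo and 813, 1280 and 1050 CPM in sgLkb1. In sgLkb1 replicates 1 and 2 the fibroblast sum was 179 and 258 CPM. Ccl2 was also higher in replicate 2 than in replicate 1, while Ccl7, Cxcl12 and Cxcl13 were lower. The part of RNA from fibroblasts, endothelial and mesothelial cells in the chemokine values was not tested. The eosinophil attractant Ccl24 was at 0 to 0.36 and 0.10 to 1.78 CPM and did not pass.

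The inflammatory CC ligands Ccl3, Ccl4, Ccl5, Ccl6 and Ccl9 gave no call. Ccl6, made by myeloid cells in mice, was the most abundant CC ligand, at 79.1, 40.3 and 59.5 CPM in sgNeo and at 237, 55.8 and 118 CPM in sgLkb1. The groups overlapped, and the log2 fold change was 1.20 (SE 0.48, adjusted p in edgeR = 0.13), with 1.60 without sgLkb1 replicate 2, where it was called (adjusted p in edgeR = 0.032), and 0.57 without sgLkb1 replicate 1 (adjusted p in edgeR = 0.36). Ccl6 was also called by DESeq2 and with no filter on low counts. Ccl9, also known from myeloid cells, was at 2.31 to 4.33 CPM in sgNeo and at 14.9, 1.76 and 6.22 CPM in sgLkb1. Ccl6, Ccl9 and their receptor Ccr1 were all highest in sgLkb1 replicate 1, where macrophage markers summed to 59.4 CPM, also their highest. The part of macrophage RNA in these values was not tested. Ccl5, a T-cell attractant, was at 0.56, 1.17 and 1.59 CPM in sgNeo and at 0.049, 0.21 and 0.29 CPM in sgLkb1 and did not pass (-2.60 on the log2 scale, SE 0.78, adjusted p in edgeR = 0.059). The macrophage chemokines Ccl3 and Ccl4 were at most 1.54 CPM in any library.

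**Figure D5:**
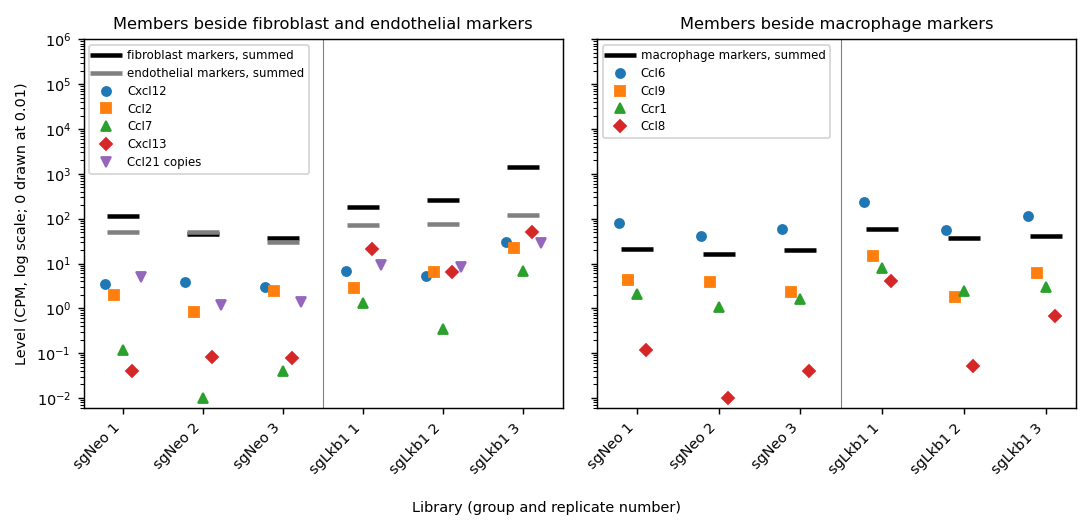
CPM on a log axis in each library for members set beside the summed levels of fibroblast (black bars) and endothelial (grey bars) markers on the left and of macrophage markers (black bars) on the right; a value of 0 is drawn at 0.01. The members drawn were chosen with their values known, so their shared peaks are a description only. Cxcl12, Ccl2, Ccl7, Cxcl13 and the Ccl21 copies peak in sgLkb1 replicate 3, with fibroblast and endothelial sums of 1390 and 122 CPM. Ccl6, Ccl9, Ccr1 and Ccl8 peak in sgLkb1 replicate 1, with the macrophage sum of 59.4 CPM. Cxcl5, Ppbp, Ackr3 and Cxcl14, which passed and are not drawn, were highest in sgLkb1 replicate 2 (354, 121, 49.2 and 8.15 CPM).

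Ccl21, which guides Ccr7-bearing cells through lymphatics, has near-identical gene copies, and the table held 7 IDs for them. RSEM divides shared reads between copies, so single copies such as Ccl21d, at 0, 0.73 and 0 CPM in sgNeo and 2.00, 0 and 10.0 CPM in sgLkb1, are uncertain. Of 3 copies tested none passed. The most abundant, Ccl21a on chromosome 4, was at 3.97, 0.32 and 1.23 CPM in sgNeo and at 7.31, 5.71 and 15.3 CPM in sgLkb1. Its groups did not overlap (2.36 on the log2 scale, SE 0.79, adjusted p in edgeR = 0.082). Summed over the copies, Ccl21 was at 5.05, 1.17 and 1.39 CPM in sgNeo and at 9.31, 8.41 and 28.3 CPM in sgLkb1. That sum, added after seeing the data, passed with a log2 fold change of 2.59 (with SE 0.69, adjusted p in edgeR = 0.040). Ccl27a, a skin chemokine whose exons overlap those of Il11ra1, was at 4.46 to 5.38 and 2.33 to 3.20 CPM without passing. Ccl25, a gut and thymus chemokine, was at 1.83 to 3.61 and 3.24 to 5.38 CPM, and Ccl17, a ligand of Ccr4, at 0.44 to 2.22 and 0.21 to 0.56 CPM, and neither passed.

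Receptors were scarce next to ligands. Of 24 receptors 13 were tested, and Ackr3 rose while Ccr6 fell. Ackr3, an atypical receptor that takes up Cxcl12, was the most abundant receptor of sgLkb1 libraries, at 11.0 CPM per kb of exon against 1.67 CPM per kb in sgNeo. It was at 2.72, 5.26 and 8.83 CPM in sgNeo and at 18.7, 49.2 and 42.2 CPM in sgLkb1. The groups did not overlap, and the lowest sgLkb1 library was well above the highest sgNeo library. Ackr3 differed by 2.71 on the log2 scale (SE 0.49, adjusted p in edgeR = 0.0090), and from 2.37 to 3.19 with a library left out. Unlike Cxcl12 it was highest in sgLkb1 replicate 2, not replicate 3. The signalling receptor of Cxcl12, Cxcr4, was at 0.16 to 0.64 and 0.37 to 1.17 CPM and did not pass.

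Of the other atypical receptors, 3 were tested and did not pass. Ackr2, which clears inflammatory CC chemokines, was at 1.28, 1.42 and 0.28 CPM in sgNeo and at 3.47, 2.67 and 2.46 CPM in sgLkb1, with no overlap (1.53 on the log2 scale, SE 0.60, adjusted p in edgeR = 0.13). Ccrl2, a chemerin-binding relative, was at 4.05 to 6.35 and 2.33 to 3.87 CPM, also without overlap (-0.71 on the log2 scale, SE 0.35, adjusted p in edgeR = 0.21). Ackr4, which clears Ccl19, Ccl21 and Ccl25 and whose exons overlap those of Acad11, was at 0.56 to 1.23 and 0.098 to 1.15 CPM. Ackr1, which binds many chemokines on red cells and venules, was not tested, at 0 to 0.24 and 0.18 to 0.76 CPM.

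Cxcr2, the receptor of Cxcl1, Cxcl2, Cxcl3, Cxcl5 and Ppbp, was at 0.96, 0.85 and 7.96 CPM in sgNeo and at 2.10, 0.39 and 0.086 CPM in sgLkb1. A single library, sgNeo replicate 3, held most of it, and without that library the log2 fold change was -0.07 against -1.91 (SE 1.19, adjusted p in edgeR = 0.32). Neutrophil markers summed to 5.85 CPM in that library, the lowest sum of all 6. Of these markers Csf3r was at its highest sgNeo level there (1.67 CPM), and Retnlg and S100a8 were at their lowest sgNeo levels. S100a9 was at 0.88 CPM there, between its values in the other sgNeo libraries (0.69 and 1.36 CPM). The part of neutrophil RNA in the Cxcr2 values was not tested. Ccr1 was at 1.09 to 2.04 and 2.46 to 7.87 CPM, the highest signalling receptor of sgLkb1 libraries per kilobase (1.56 CPM per kb), without passing (1.49 on the log2 scale, SE 0.54, adjusted p in edgeR = 0.10). Cxcr3, Ccr2, Ccr7 and Ccr9 were at most 1.84 CPM in any library.

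The other 28 members did not enter the test. Of them 6 had no counts in any library: Xcl1, Ccl26, Ccr4, Ccl27b and 1 extra copy each of Ccl19 and Ccl27a. The highest single value among the 28 was for Ccl8, at 4.13, 0.052 and 0.66 CPM in sgLkb1 replicates 1, 2 and 3 and at most 0.12 CPM in sgNeo. The others were at most 0.96 CPM in any library. They include Cx3cr1 and Cxcr6, the receptors of Cx3cl1 and Cxcl16, at no more than 0.76 and 0.32 CPM.

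Genes that act on chemokines or below their receptors were counted on lists of 77 genes, of which 76 were tested, 7 rose and 4 fell, close to the 15.7% of all genes. Dpp4, a protease that trims the N-terminus of several chemokines, fell from 295 ± 31.0 to 37.6 ± 10.8 CPM (SD, n = 3; log2 fold change -2.97, adjusted p in edgeR = 0.00061). Adam10, which sheds Cx3cl1 and Cxcl16 from the membrane, rose from 176 ± 12.8 to 454 ± 117 CPM (log2 fold change 1.36, adjusted p in edgeR = 0.0049). With Mmp14 and Mmp7 higher, at log2 fold changes of 2.01 and 6.88, the list of proteolysis, shedding and retention had 3 higher and 1 lower of 15 tested (median 0.59). Among 29 genes of receptor signalling and desensitisation 2 rose and 2 fell (median 0.13). Rgs2, which shortens G protein signals, rose from 3.03 ± 2.30 to 36.4 ± 7.66 CPM, and Prex1, a Rac activator downstream of G proteins, from 3.21 ± 0.83 to 11.3 ± 1.40 CPM. Grk3, a kinase that desensitises receptors, fell from 80.3 ± 5.68 to 28.1 ± 8.34 CPM, and Vav2, another Rac activator, from 37.2 ± 2.95 to 15.5 ± 3.56 CPM. Of 19 NF-κB genes 1 rose, Nfkbiz, a nuclear IκB protein, from 36.1 ± 1.88 to 96.3 ± 29.6 CPM (median 0.03). Of 14 interferon signalling genes Irf8 rose and Stat2 fell, with log2 fold changes of 1.06 and -1.02 (median -0.30).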

How the data were processed

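The data were bulk RNA sequencing libraries of sorted mouse lung tumour cells, 3 per group. The deposited values are expected counts of each gene. FastQC, STAR, RSEM, DESeq2 and the build GRCm38 are named, without roles or versions, in the submitters' processing notes, and the annotation release and strand setting were not found there. Counts were rounded, filtered with filterByExpr (15978 of 55487 genes kept), scaled with TMM and compared with edgeR 4.0.16 (R 4.3.3) by the quasi-likelihood test, genotype as the only term, with Benjamini-Hochberg adjustment over all tested genes at 0.05. Fold changes are sgLkb1 minus sgNeo, and SE is the absolute log2 fold change over the square root of F. Intervals cover counting error only.

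Members and lists were chosen with earlier results of these data known. Values are given for members that passed, had a group mean of at least 5 CPM or belong to the tested neutrophil attractants, and others more briefly. From each further list the members that passed are named, at most 4 in each direction. Cxcr2, Cxcl9 and other members outside this rule were chosen after their values were seen. Exon lengths, positions and overlaps come from GENCODE M21 (GRCm38), which holds 68 of the 71 member IDs. Alternatives were RLE and upper-quartile scaling, 2 filters, DESeq2 1.42.0, limma-voom (limma 3.58.1), a replicate block and leaving out each library. Summing gene copies was added after seeing the data. The test was tested on simulated data. The values of 1 tested member that did not pass are not reported here.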

Additional observations from a re-analysis of the deposited data

How the results depend on the processing

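The number of members that passed was 10. It was 18 with no filter on low counts, 17 with DESeq2 and 6 with limma-voom, and 5 to 12 with a library left out. Cxcl15, Pf4, Ccl20 and Ackr3 kept their calls under all 14 settings. Over all genes 2501 passed, and 1129 to 2780 with a library left out. For the other pathway genes the number was 11, with 17 when no filter was used and 9 to 13 with a library left out. The sign of Cxcl2 turned, from -0.02 to 0.008 under RLE scaling, 0.015 with no filter, 0.009 with DESeq2 and 0.003 with limma-voom, and ran from -0.13 to 0.18 with a library left out; Cx3cl1 ran from -0.016 (without sgLkb1 replicate 2) to 0.34. The cause of these changes was not tested. With the replicate number as a block 11 members passed (2880 genes in all, 13 pathway genes), with Ccl2, Ccl5, Ccl6 and Ccl21a gained and Cxcl5, Cxcl14 and Ccr6 lost. DESeq2 gained those 4 and Cxcl1, Cxcl12 and Ccr1. Same-numbered libraries deviated together with correlations of 0.23, -0.02 and 0.22, and differently numbered ones with -0.27 to 0.12. With so few pairs these values cannot settle whether the numbers pair the samples. No scaling moved the median of all genes by more than 0.03 on the log2 scale. Members under about 1 CPM rest on few counts, and differences there may not be detectable at this depth.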

Other observations

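Cxcl11, the third ligand of Cxcr3, is annotated in the table as a polymorphic pseudogene and so lies outside the member rule. It was at 0, 0.28 and 0.92 CPM in sgNeo replicates 1, 2 and 3 and at 0, 0.13 and 0.23 CPM in sgLkb1.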
